A study of Homo sapiens with 4 samples.

Results

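The peak list of the ChIP-seq library labelled HA, called by the authors against the input labelled HA, was described on chromosomes 1 to 22. Its members were taken by position alone: of 12662 peaks in the list, 12236 lay on these chromosomes, and all of them were kept. The library came from untreated cells of K562, a human leukemia line first grown from a patient with chronic myeloid leukemia in blast crisis. The growth notes of the samples give 2 kinds of culture, HA-PHF6-overexpression and HA-overexpression, and DNA was recovered from cross-linked, sheared chromatin with an HA antibody (Abcam, ab9110). The study holds 4 libraries, a ChIP and an input labelled HA and a ChIP and an input labelled WT, with 1 library of each. The title HA does not settle whether these cells made HA-PHF6 or carried the HA tag alone, so the library is named by its label. After the removal of duplicates, 16132466 ChIP tags and 23134375 input tags remained. Without a replicate there was no spread to test a difference against, so the values are given as a description, and the 95% Wilson intervals cover counting error only.

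PHF6 is a nuclear protein with zinc-binding PHD-like domains that is found on chromatin and in the nucleolus, and its gene is often mutated in T-cell acute lymphoblastic leukemia. Transfer RNA (tRNA) genes are transcribed by RNA polymerase III from promoter elements inside the gene, the A box and the B box, which the factor TFIIIC recognizes. Vault RNA, Y RNA, 7SK and 7SL genes are read by the same polymerase, whereas most protein-coding genes are read by RNA polymerase II from a promoter around their start.

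A summit is the position of highest coverage in a peak, and the pileup is the number of extended ChIP tags over it. The fold enrichment divides that pileup, plus 1, by the tags that the input predicts there, plus 1, and the predicted number is called the background. Where coordinates are given, they are those of the list, whose sequence names are those of the RefSeq tables of GRCh38.p14 used to name genes. The genome build itself is not given in the sources used here.

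The sequences below are tRNA genes that could be read whole from the RefSeq promoter windows, shown because tRNA genes held most of the well enriched summits. Letters in capitals mark GTTCNANNC, the form of the B box searched for on both strands, and each gene is printed on the strand on which this element lay in its distal part.

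TRG-CCC2-2: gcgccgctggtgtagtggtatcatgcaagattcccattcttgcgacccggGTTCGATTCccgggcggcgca
TRR-ACG2-1: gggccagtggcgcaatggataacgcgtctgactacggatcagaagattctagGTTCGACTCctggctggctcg
TRP-TGG3-2: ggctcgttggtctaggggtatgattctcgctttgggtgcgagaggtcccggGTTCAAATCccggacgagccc
TRP-TGG3-5: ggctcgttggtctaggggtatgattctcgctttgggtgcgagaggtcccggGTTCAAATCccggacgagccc
TRH-GTG1-9: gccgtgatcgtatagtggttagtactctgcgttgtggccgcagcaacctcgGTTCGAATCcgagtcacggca
TRH-GTG1-3: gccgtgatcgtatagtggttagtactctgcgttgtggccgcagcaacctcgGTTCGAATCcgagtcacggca

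TRG-CCC2-2, a glycine tRNA gene at chr16:636736-636806 on the minus strand, had a summit of 46 tags over a background of 4.88. TRR-ACG2-1, an arginine tRNA gene at chr3:45688999-45689071 on the minus strand, had 45 tags over 4.88. The proline genes TRP-TGG3-2, at chr14:20684016-20684087, and TRP-TGG3-5, at chr16:3188094-3188165, both on the plus strand, have the same 72 bases. The first of them held a summit of 32 tags at a fold of 10.2, and no peak lay within 200 bp of the second. In the same way, the histidine genes TRH-GTG1-9, at chr15:45201151-45201222, and TRH-GTG1-3, at chr1:148281365-148281436, share their 72 bases on the plus strand. TRH-GTG1-9 had 21 tags at a fold of 5.81, and TRH-GTG1-3 had no peak within 200 bp. Genes with the same letters thus stood on either side of the call. The reads kept were those with a unique position, and how many reads each copy could receive was not measured here.

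In total 14 tRNA genes lay whole in a promoter window. A summit fell inside 7 of them and within 200 bp of 9, and all 14 held the element GTTCNANNC once. The stricter core GGTTCGA was present in 9 and the A box core TNGCNNAG in 5.

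Most peaks of the list were small. The pileup ran from 4 to 401 tags with a median of 5, and 86.5% of the peaks, 10583, had 4 to 7 tags. A pileup of 5 was the most frequent value, with 3837 peaks, followed by 6 with 2806 and 4 with 2504. A further 1220 peaks had 8 to 15 tags, 254 had 16 to 31, 81 had 32 to 63, 29 had 64 to 126 and 69 had 128 to 401. Fold enrichment ran from 1.32 to 14.9 with a median of 2.93. The adjusted value of the peak caller, −log10 q, was exactly 0 for 7855 peaks (64.2%, 95% Wilson interval 63.3 to 65) and reached 5 for 261 (2.13%, 1.89 to 2.40). A fold of at least 5 was found for 177 peaks (1.45%, 1.25 to 1.67). The local background was at the genome-wide level of 1.05 tags for 6599 peaks (53.9%).

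**Figure D1:**
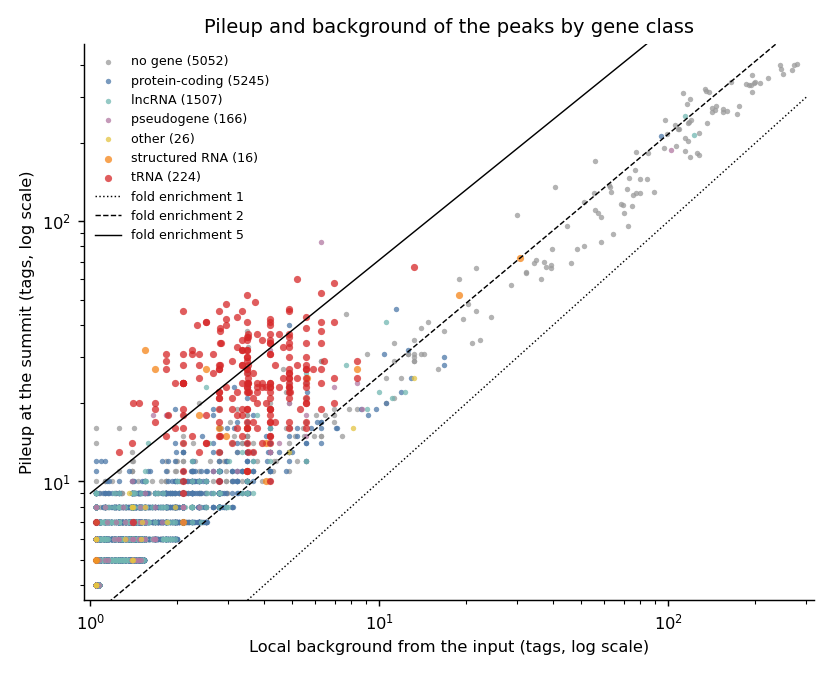
Each point is 1 peak, with the local background from the input on the x axis and the pileup at the summit on the y axis, both in tags on log scales. Colors give the gene class at the summit with the number of peaks, and the lines mark fold enrichments of 1, 2 and 5. The tRNA summits (red), with quartiles of 19 and 31.2 tags, lie over backgrounds of a few tags, while the highest pileups (grey, in no gene) lie along a fold of about 2 over backgrounds of 100 tags and more.

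Pileup and enrichment ranked the peaks differently. The 69 peaks of 128 to 401 tags had a median background of 119 tags and a median fold of 1.84. The 29 peaks of 64 to 126 tags had a median background of 46.0 and a median fold of 1.76. In the next band down, 32 to 63 tags, the median background was 4.18 and the median fold 7.36, the highest of the 6 bands. The fold was 4.26 at 16 to 31 tags, 3.41 at 8 to 15 and 2.93 at 4 to 7. The highest value, 401, stood next to 402, which is the pileup of 1 tag on each strand at each of 201 positions, the most that deduplicated tags of this extension can reach. The input tags were deduplicated too, so the background has an upper limit as well. Where pileup and background both stand near their limits, the fold is set by the sequencing depths and does not measure enrichment. The highest background of the list, 278 tags, stood at that same peak of 401 tags, whose fold was 1.44. The limit of the background follows from the 2 sequencing depths and was not computed here.

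The 30 peaks of highest pileup, from 262 to 401 tags, had no annotated gene at their summits in 30 of 30 cases. Their backgrounds were 112 to 278 tags and their folds 1.42 to 2.77. Of these peaks, 20 lay on chromosome 16, 6 on chromosome 1, 2 on chromosome 4 and 1 each on chromosomes 3 and 17. The highest was chr3:93470369-93470796, with 401 tags over 278, followed by a summit of 398 tags over 272 in chr16:46389668-46390896 and 1 of 397 over 244 in chr1:125179922-125180616. The input was high at each of these places.

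A background of at least 10 tags was found for 139 peaks (1.14%, 0.963 to 1.34). Their pileups ran from 20 to 401 with a median of 126, and their median fold was 1.87. No gene was annotated at 120 of these summits (86.3%), and 1 lay in a tRNA gene. Chromosomes 1 and 16 had 34 each and chromosome 4 had 15, so that the 3 of them held most of these peaks.

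Gene classes at the summits followed from the RefSeq biotype, with tRNA genes first where genes overlapped. Over all peaks, 5245 summits lay in protein-coding genes (42.9%, 42.0 to 43.7), which cover 42.1% of the sequence. No annotated gene lay at 5052 (41.3%, 40.4 to 42.2), against 44.1% of the sequence. Long non-coding RNA (lncRNA) genes held 1507 (12.3%, against 12.3% of the sequence) and pseudogenes 166 (1.36%, against 1.31%). These 4 shares stood close to the share of sequence that each class covers. tRNA genes held 224 summits (1.83%, 1.61 to 2.08) and cover 0.00115% of the sequence. Other structured RNA genes, such as vault, Y and ribosomal RNA genes, held 16 (0.131%, 0.0805 to 0.212), against 0.0124% of the sequence.

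**Figure D2:**
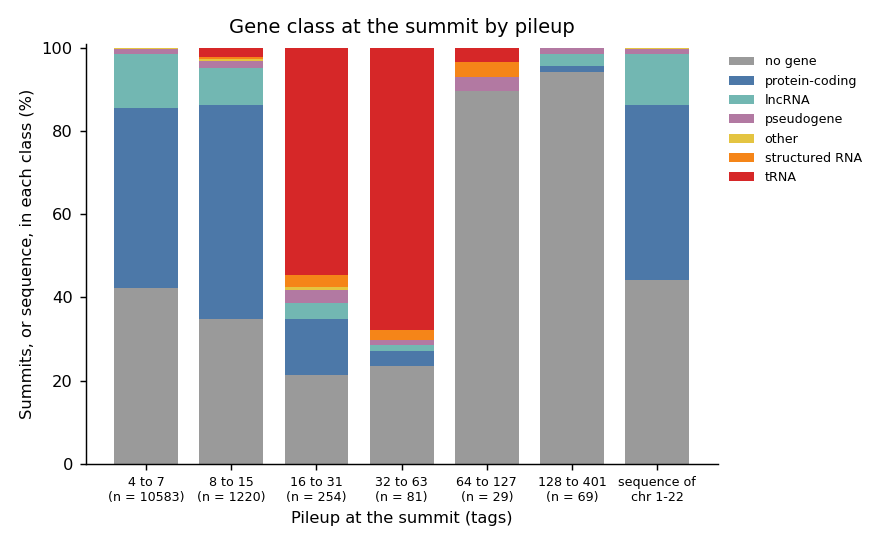
Stacked bars give the percentage of summits in each gene class for 6 bands of pileup, with the number of peaks under each, and the last bar gives the percentage of the sequence of chromosomes 1 to 22 in each class. tRNA genes (red) hold 54.7% and 67.9% of the summits at 16 to 31 and 32 to 63 tags, and the bands above are mostly in no gene (grey).

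From the highest pileup down, the classes changed in 3 steps. At 128 to 401 tags 65 of 69 summits were in no gene (94.2%, 86.0 to 97.7), and none was in a tRNA gene. At 32 to 63 tags tRNA genes held 55 of 81 summits (67.9%, 57.1 to 77.1), and at 16 to 31 tags 139 of 254 (54.7%, 48.6 to 60.7). At 8 to 15 tags they held 27 of 1220 (2.21%, 1.53 to 3.20), and protein-coding genes held 628 (51.5%, 48.7 to 54.3). At 4 to 7 tags only 2 of 10583 summits were in tRNA genes, 43.3% were in protein-coding genes and 42.2% in no gene. By rank, tRNA genes held 0 of the top 30, 2 of the top 100, 139 of the top 300 (46.3%, 40.8 to 52.0) and 222 of the top 1000.

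Among peaks with a background under 10 tags, a limit chosen after the values had been seen, the same ranking by pileup began with tRNA genes. They held 9 of the top 10, 27 of the top 30, 86 of the top 100 (86.0%, 77.9 to 91.5) and 197 of the top 300 (65.7%, 60.1 to 70.8). The exception in the top 10 was also its highest peak, in LOC100189498 on chromosome 1, with 83 tags over 6.28. Its fold was 11.5 and its −log10 q of 54.4 was the highest of the whole list. RefSeq classes this entry as a pseudogene, and its older names in that table are those of a glycine tRNA gene. Of 98 pseudogenes that the table lists under a tRNA name, 4 held a summit (4.08%), with 18 to 83 tags. Another of the 4 was TRV-CAC11-2 on chromosome 1, with 32 tags at a fold of 6.37. Over all 15727 pseudogenes the share with a summit was 1.21%, and over all annotated genes it was 9.62%.

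The table holds 439 tRNA genes on these chromosomes, and 224 of them held a summit (51%, 46.4 to 55.7). Of all 56752 annotated genes, 9.62% held one. With −log10 q of at least 5, 153 tRNA genes held a summit (34.9%), against 0.374% of all genes. The tRNA genes have a median length of 73 bp, and the median over all genes is 5736 bp. Pileups at tRNA genes ran from 7 to 67 tags with a median of 24 and quartiles of 19 and 31.2. Their folds ran from 2.12 to 14.9 with a median of 5.37, beside a median of 2.93 over the whole list. The median background was 3.5 tags, so the input was above the genome-wide level of 1.05 there.

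The tRNA gene of highest pileup was TRG-CCC1-1, a glycine tRNA gene on chromosome 1, with 67 tags over 13.2 at a fold of 4.77. It was the only tRNA gene with a background over 10 tags. The proline gene TRP-CGG1-1 followed with 60 tags at a fold of 9.86, and the leucine gene TRL-CAG2-1 with 58 at 7.40. TRL-CAA1-1 had 53 tags, TRP-TGG2-1 had 52, TRM-CAT6-1 had 49 and TRP-AGG2-3 had 48, with folds of 7.42, 11.8, 10.6 and 12.4. The largest fold of the list was at TRG-CCC6-1, also for glycine, with 45 tags over 2.09, a fold of 14.9. At the other end, TRK-TTT2-1 and TRV-CAC4-1, genes for lysine and valine, had 7 tags each, and TRC-GCA5-1, for cysteine, had 9.

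By amino acid, serine, threonine and tyrosine tRNA genes held summits most often among the standard amino acids, in 18 of 26, 14 of 20 and 9 of 13 genes. The initiator methionine genes (TRX-CAT) held 7 of 8 (87.5%, 52.9 to 97.8), with 21 tags at TRX-CAT1-7 and 42 at TRX-CAT1-6. The elongator methionine genes held 4 of 11, though with the highest median pileup, 39 tags, and a range from 31 at TRM-CAT3-1 to 49 at TRM-CAT6-1. Asparagine genes held 5 of 22 (22.7%, 10.1 to 43.4), with a median of 22 tags, and tryptophan genes 2 of 7. Selenocysteine genes held 0 of 2, and 20 genes that are not named for an amino acid in the usual way held 0 of 20. For most amino acids these intervals overlap, since most rest on about 10 to 30 genes.

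Glycine genes held 16 of 30, from 11 tags at TRG-GCC2-6 to 67 at TRG-CCC1-1, with a median of 32.5. Proline genes held 12 of 20 with a median of 32, from 14 at TRP-TGG1-1 to 60 at TRP-CGG1-1. Leucine genes held 16 of 32 with a median of 31, from 14 at TRL-TAG2-1 to 58 at TRL-CAG2-1. Lysine genes held 18 of 27 with a median of 23, from 7 at TRK-TTT2-1 to 38 at TRK-TTT3-1. Tyrosine genes had the lowest median, 17 tags, from 13 at TRY-GTA5-4 to 32 at TRY-GTA2-1, although they were among those found most often. How often genes of an amino acid were found and how high their summits stood were therefore not in the same order.

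The symbols group tRNA genes into families, by anticodon and first number, whose members have the same mature tRNA. Of 257 such families, 142 had at least 1 gene with a summit. Among 55 families of 2 or more genes, 17 had a summit in every gene, 26 in some and 12 in none. In those families 125 of 217 genes held a summit (57.6%, 51 to 64.0), and in families of 1 gene it was 99 of 202 (49.0%, 42.2 to 55.9), with overlapping intervals. All 6 genes of TRS-AGA2 were found and 7 of 8 of TRX-CAT1, but 3 of 9 of TRH-GTG1 and 2 of 7 of TRL-CAG1. By family number, genes numbered 1 held a summit in 59 of 112 cases (52.7%, 43.5 to 61.7), those numbered 2 in 73 of 104 (70.2%, 60.8 to 78.1), 3 in 32 of 54 (59.3%, 46 to 71.3), 4 in 21 of 40 (52.5%, 37.5 to 67.1) and 5 or more in 39 of 109 (35.8%, 27.4 to 45.1). From number 2 on the shares fell with the number, and the intervals of 2 and of 5 or more did not overlap. Number 1 was outside that order, with a share below that of number 2.

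tRNA genes on chromosome 6, the largest set with 155 genes, held a summit in 87 (56.1%). Chromosome 1 has 98 tRNA genes, and 23 held a summit (23.5%). Chromosome 17 had 24 of 33, chromosome 16 had 14 of 26, chromosome 14 had 14 of 19, and chromosomes 12 and 15 had 8 of 9 each. The median pileup where a summit was found was 29 tags on chromosome 1 and 24 on chromosome 6, so the chromosome with the lower share was not the one with the lower summits. On chromosome 14 the median was 15 tags.

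Summits lay over the bodies of the tRNA genes. Within 200 bp of a tRNA gene there were 253 summits, 29 of them outside the gene itself. The median distance from the centre of the gene was 13 bp, and 235 of the 253 (92.9%) were within 50 bp of it.

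**Figure D3:**
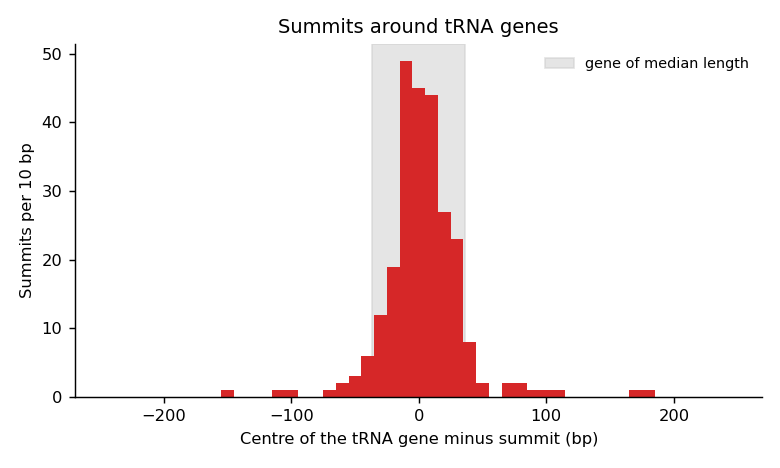
The histogram counts the 253 summits within 200 bp of a tRNA gene by the distance in bp from summit to the centre of the gene, in bins of 10 bp, and the grey band marks a gene of the median length of 73 bp. Of these summits 185 lie within 25 bp of the centre.

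Other genes of RNA polymerase III were fewer. All 4 vault RNA genes on chromosome 5 held a summit, VTRNA1-3 with 32 tags at a fold of 13.0, VTRNA1-2 with 27 at 10.4, VTRNA2-1 with 27 at 7.95 and VTRNA1-1 with 16 at 4.49. Of 16 further genes in a fixed list, 5 held one (31.2%, 14.2 to 55.6). RN7SL1, the RNA of the signal recognition particle, had 18 tags at a fold of 5.62, and RMRP, the RNA of the mitochondrial RNA processing ribonuclease, had 16 at 3.79. RN7SK, which holds back the elongation factor P-TEFb, had 15 tags at 4.06. The Y RNA genes RNY4 and RNY1 had 14 and 10 tags at 2.96 and 2.17. None of the 17 5S ribosomal RNA genes held a summit, with an upper Wilson bound of 18.4%, nor any of 1150 small nucleolar RNA genes, with an upper bound of 0.333%. These genes are short, with median lengths of 121 and 104 bp. Over all 3208 structured RNA genes, with a median of 88 bp, the share was 0.468%. Over all genes, with a median of 5736 bp, it was 9.62%. Only reads with a unique position were kept, and how many such reads these genes could receive was not measured here. Of 151 genes of the small nuclear RNA biotype 2 held one, RN7SK and RNVU1-26, and RNVU1-26, a variant U1 gene of the splicing machinery, had 7 tags at a fold of 2.59.

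Ribosomal RNA was reached through RNA45SN2, the precursor of the large ribosomal RNAs, on chromosome 21. Its 3 summits had 52, 27 and 25 tags over backgrounds of 18.8, 8.37 and 5.61, with folds of 2.67, 2.99 and 3.94. The structured RNA gene of highest pileup, the microRNA gene MIR8078 on chromosome 18, had 72 tags over 30.7, a fold of 2.30. Both thus differed from the vault RNA genes, whose backgrounds were 1.54 to 2.79 tags.

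Among protein-coding genes the highest summit was in DUX4, a transcription factor gene in the repeat array at the end of chromosome 4, with 213 tags over 94.1 at a fold of 2.25. CDC45, a replication factor, followed with 46 tags over 11.4, and INO80, a chromatin remodeler, with 40 over 4.88 at a fold of 6.97. The lncRNA gene with the highest summit was LOC112268408, with 254 tags over 114, and the pseudogene with the highest was DUX4L26, with 188 over 102. Most summits in protein-coding genes were low, with a median of 6 tags and quartiles of 5 and 7, and 10 of 5245 reached a −log10 q of 5 (0.191%), against 153 of 224 in tRNA genes (68.3%).

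How many protein-coding genes held a summit went with their length. Up to 10 kb the share was 3.61% of 5325 genes, from 10 to 30 kb 8.67%, from 30 to 100 kb 20.7%, from 100 to 300 kb 44.0%, and above 300 kb 80.9% of 739 genes. The genes with the most summits were CNTNAP2 with 22, RBFOX1 with 19 and EYS with 17, with lengths of 2304198, 2473620 and 1987247 bp and median pileups of 5 tags. CNTNAP2 and RBFOX1 are mainly neuronal genes, and no summit in the 3 of them went above 8 tags. Of 506 zinc finger genes named ZNF, 83 held a summit (16.4%, 13.4 to 19.9), near the 18.0% over all protein-coding genes, and none of these reached a −log10 q of 5. Of 69 histone genes, with a median length of 494 bp, 2 held a summit (2.9%, 0.799 to 9.97), H4C2 with 16 tags and H3C2 with 14. That share is near the 3.61% of protein-coding genes up to 10 kb.

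Promoters were looked at in 33725 RefSeq windows on 21 chromosomes, each from 250 bp before to 50 bp after the start of a gene. Of 11553 summits on these chromosomes, 200 lay in a window (1.73%, 1.51 to 1.99), against 0.335% of the sequence. The share was 0.553% (0.425 to 0.719) at 4 to 7 tags, 9.13% (7.61 to 10.9) at 8 to 15, 12% (8.54 to 16.6) at 16 to 31 and 10.0% (5.15 to 18.5) at 32 to 63. Above 63 tags no summit lay in a window. A tRNA gene lay within 200 bp of 14 of the 200 summits, unevenly by pileup: of 7 of the 8 at 32 to 63 tags, 6 of the 30 at 16 to 31, 1 of the 107 at 8 to 15 and 0 of the 55 at 4 to 7. Away from tRNA genes 1 of the 80 summits of 32 to 63 tags and 24 of the 250 of 16 to 31 tags were in a window.

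POLR3E, which encodes a subunit of RNA polymerase III itself, had 43 tags at a fold of 10.4 in its window. That summit lay in the leucine tRNA gene TRL-AAG2-4, and a separate summit of 21 tags, at a fold of 4.90, lay inside POLR3E. The stretch below, chr16:22297159-22297308 on the plus strand, begins within the tRNA gene and has the B box element in capitals.

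POLR3E: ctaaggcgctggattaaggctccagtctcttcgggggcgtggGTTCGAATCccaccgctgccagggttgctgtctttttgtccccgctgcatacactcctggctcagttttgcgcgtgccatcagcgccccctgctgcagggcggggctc

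FEM1A, which encodes a substrate receptor of a ubiquitin ligase, had the highest summit in a promoter window away from tRNA genes, with 33 tags over 3.5, a fold of 7.55 and a −log10 q of 15.9. GTF2H4, a subunit of the general transcription factor TFIIH, had 27 tags at a fold of 4.98, and BOD1, a protein needed for chromosome segregation, 26 at 5.99. KMT2A, a histone methyltransferase gene often rearranged in leukemia, had 23 tags at 5.33. SLX4IP had 16 tags over 1.42, a fold of 7.04. In the same range, summits of 25 to 31 tags in the windows of TOP3B, MED15, LZTR1 and THAP7-AS1, all on chromosome 22, stood over backgrounds of 12.9 to 13.9 with folds of 1.87 to 2.18. Of the 15 highest summits in no gene, with a background under 10 tags and no tRNA gene within 200 bp, 10 lay within 1000 bp of an annotated gene. The nearest gene was more than 200000 bp away from 4 others, with a largest distance of 1687303 bp. Of the 10, 9 were nearest to a protein-coding gene and 1 to the tRNA gene TRL-CAA6-1, at 705 bp. How often other summits or other sequence lie this close to a gene was not measured here. FEM1A, GTF2H4, BOD1 and KMT2A are among the 10.

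The B box core GGTTCGA was held by 291 of the 33725 windows (0.863%) and by 7 of the 42 windows with a summit of 16 or more tags (16.7%, 8.32 to 30.6). Of those 42 windows, 13 had a tRNA gene within 200 bp of the summit, inside the gene in 12 of them, and 29 had none. The 7 windows with the core were all among the 13, and 0 of the 29 held it. The wider form GTTCNANNC was in 7.4% of all windows and 13 of the 42 (31%, 19.1 to 46), 11 of them with a tRNA gene within 200 bp of the summit. The A box core TNGCNNAG, a common word, was in 42.9% of all windows and 40.5% of those 42.

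The 147 windows with a summit of at least 8 tags, no tRNA gene within 200 bp and a background under 10 tags were then searched for short words. All words of 7 letters were counted on both strands. They were ranked by their excess over the count expected from all windows, relative to about the square root of that expected count. By plain difference in share other words stood higher, such as CGGCGGC, in 46.3% of the 147 windows and 17.9% of all. ACTACAA ranked first and was chosen by this ranking, so its share in these windows is a description. It was present in 29 of 147 windows (19.7%, 14.1 to 26.9) and in 937 of all 33725 (2.78%). In the 22 windows with 16 or more tags, which are among the 147, it was in 10 (45.5%, 26.9 to 65.3). The 66 windows with a summit of 4 to 7 tags took no part in the choice, and 7 of them held it (10.6%, 5.23 to 20.3), against 901 of 33491 windows with no summit (2.69%, 2.52 to 2.87). Windows that share a summit, as at paired genes read in opposite directions, count more than once, so that the 147 windows stand for 125 summits and the 29 for 24. Likewise the 22 windows stand for 19 summits and the 66 for 55. The intervals treat each window as separate.

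Base composition moved with the summits too. The median GC content was 68.3% in the 147 windows and 58.7% in all windows. Among windows with at least 65% GC, ACTACAA was in 16 of 94 with a summit of 8 or more tags (17.0%, 10.8 to 25.9) and in 208 of all 11265 (1.85%). The 94 windows are among the 147 from which the word was chosen, so this share too is a description. For the 66 windows that took no part in the choice, no share at this GC content was computed. A second word, ATGGCGG, stood at rank 8 and was not picked by rank. It was in 31 of the 147 windows (21.1%) and in 5 of the 66 that took no part in the choice (7.58%), beside 5.49% of all windows. With at least 65% GC the gap was smaller, with ATGGCGG in 17 of the 94 windows (18.1%) and in 9.11% of all 11265. The nearest copy of ACTACAA lay at a median of 40 bp from the summit and at most 234 bp away. It was within 25 bp in 8 of the 29 windows and within 50 bp in 16. How near other words of these windows lie to the summits was not measured here. ACTACAA is known as part of the longer element that the zinc finger protein ZNF143 recognizes in many human promoters, but no binding of that protein was measured here.

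The stretches below are the windows of highest pileup in which the word lay within 50 bp of the summit, 1 for each summit. They show up to 50 bases on either side of the summit, before the start of the gene and on its strand, with the word in capitals.

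GTF2H4: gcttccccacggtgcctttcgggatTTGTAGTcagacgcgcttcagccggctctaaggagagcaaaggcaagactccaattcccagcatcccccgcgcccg
BOD1: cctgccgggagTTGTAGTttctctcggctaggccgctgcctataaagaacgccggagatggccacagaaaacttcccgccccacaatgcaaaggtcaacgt
FBXL19-AS1: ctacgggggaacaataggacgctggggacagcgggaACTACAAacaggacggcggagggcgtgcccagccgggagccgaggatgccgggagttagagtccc
CHMP4B: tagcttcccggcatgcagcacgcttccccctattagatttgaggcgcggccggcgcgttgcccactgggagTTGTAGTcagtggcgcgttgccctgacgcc

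The first is chr6:30908068-30908168 on the plus strand, with 27 tags. BOD1 is shown at chr5:173616688-173616788 on the minus strand, with 26 tags. FBXL19-AS1, which shares its summit with the F-box gene FBXL19, is shown at chr16:30923295-30923395 on the minus strand, with 17 tags at a fold of 4.01. CHMP4B, a subunit of the ESCRT-III membrane remodeling complex, shares its summit with ZNF341-AS1 and is shown at chr20:33811174-33811274 on the plus strand, with 16 tags at a fold of 3.28.

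Peak length had a floor set by the caller. The shortest length, 201 bp, equals the tag extension and was found for 5475 peaks (44.7%, 43.9 to 45.6). The median was 214 bp, the quartiles 201 and 284 bp, and 95% of the peaks were at most 402 bp long. More than 2 times the extension was reached by 605 peaks (4.94%) and over 1000 bp by 17 (0.139%). By pileup the median length rose from 206 bp at 4 to 7 tags to 231 bp at 8 to 15, 284 bp at 16 to 31 and 346 bp at 32 to 63. It was 325 bp at 64 to 126 tags and 308 bp at 128 to 401. Peaks with summits in tRNA genes had a median length of 309 bp.

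**Figure D4:**
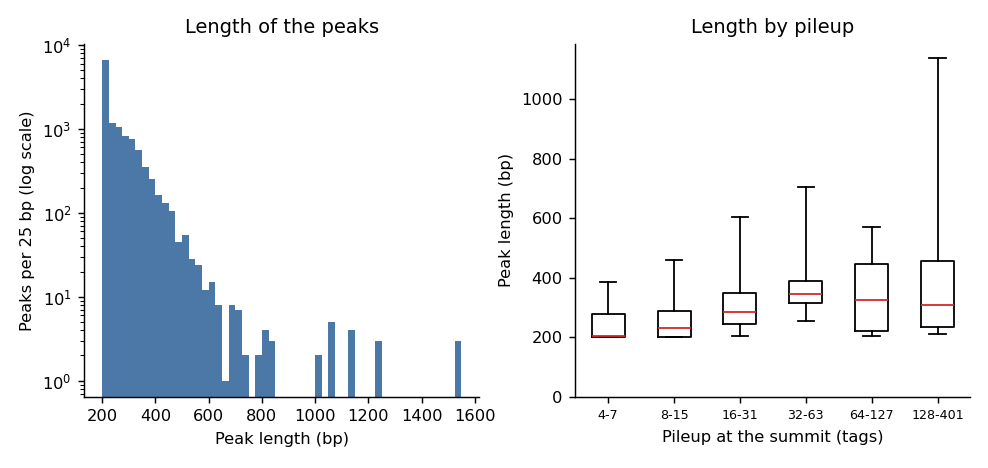
On the left, the histogram gives the number of peaks by length in bp, in bins of 25 bp with counts on a log scale. On the right, boxes give the median (red line) and quartiles of length in 6 bands of pileup in tags, with whiskers from the 5th to the 95th percentile, and the median is highest at 32 to 63 tags, with 346 bp.

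The longest region, 1528 bp at chr9:136496006-136497533, lay in NOTCH1, the receptor gene that is activated by mutation in much of T-cell acute lymphoblastic leukemia. It was split at 3 summits of 13, 12 and 12 tags, with folds of 4.53, 6.13 and 6.35 over backgrounds of 2.09, 1.12 and 1.05. The next in length, 1229 bp and 1139 bp on chromosome 16, held 3 and 4 summits of 258 to 398 tags over backgrounds of 155 to 272. A region of 1056 bp at chr17:8226109-8227164, in CTC1, held 3 summits, each in a tRNA gene: TRT-AGT1-2 with 24 tags, TRS-AGA2-6 with 10 and TRI-AAT4-1 with 24. Splitting made few peaks: of 12191 regions, 39 had several summits, and these held 84 peaks.

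Peaks were mostly alone. Chained with neighbours at most 10 kb apart, 10617 peaks (86.8%) had none, 622 pairs held 10.2%, and the remaining 375 (3.06%, 2.77 to 3.39) formed 92 clusters of 3 or more on 21 chromosomes. The median gap between neighbouring peaks was 133 kb. Clusters held 113 of the 224 tRNA summits (50.4%, 43.9 to 56.9), 93 of the 139 peaks of high background (66.9%, 58.7 to 74.2) and 131 of the 10583 peaks of 4 to 7 tags (1.24%, 1.04 to 1.47).

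The clusters fell into 3 kinds. In 13, with 96 peaks, the median background was at least 10 tags, and no summit was in a tRNA gene. In 35, with 139 peaks, a summit lay within 200 bp of a tRNA gene, and the median over clusters of their median pileup was 22 tags over a background of 3.49. The other 44, with 140 peaks, had a corresponding median of 5 tags over 1.05, and 38 of them had just 3 peaks. Some stood higher. The cluster at VTRNA1-1, VTRNA1-2 and VTRNA1-3, chr5:140711169-140726403, had 16 to 32 tags at folds of 4.49 to 13.0. A cluster at LOC102724701 on chromosome 21 had 13 to 41 tags, and chr10:42069613-42079889 had 15 to 31. These 44 lay on 20 chromosomes.

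**Figure D5:**
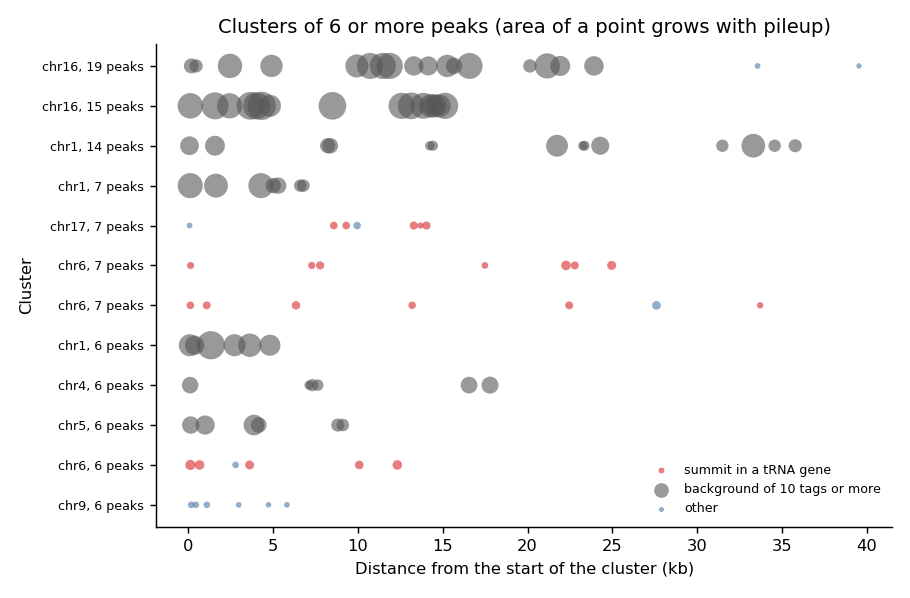
Each row is 1 of the 12 clusters with 6 or more peaks, each point a summit at its distance in kb from the start of the cluster, and the area of a point grows with its pileup. Grey points have a background of 10 tags or more, red points lie in tRNA genes, and blue points are other summits. Among the blue points are the 6 of NOTCH1 in the last row, some of them split from 1 region.

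The largest cluster, chr16:34571578-34611174, had 19 peaks over 39597 bp, with pileups of 5 to 343 tags and a median background of 119. The next, chr16:46386312-46401575, had 15 peaks in 15264 bp, all between 238 and 398 tags over backgrounds of 134 to 272. On chromosome 1, clusters of 14 and 7 peaks lay at chr1:143231363-143267400 and chr1:143213084-143219941, and 1 of 6 peaks at chr1:125178891-125183817. Clusters of 6 on chromosomes 4 and 5 also had high background, with medians of 49.9 and 76.4 tags. No gene was annotated at any summit of these 7 clusters.

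The tRNA clusters with the most peaks had 7. The cluster at chr6:26305374-26330509 had a tRNA gene at 7 of 7 summits, among them the initiator genes TRX-CAT1-3 and TRX-CAT1-4 and the serine gene TRS-AGA2-1, with 13 to 37 tags. At chr6:28789639-28823464 the genes were for alanine and phenylalanine, 6 at 7 summits, with 11 to 29 tags. At chr17:8212963-8227164, 5 tRNA genes lay at 7 summits of 7 to 24 tags, with a median fold of 7.83. A cluster of 6 peaks at chr6:28940966-28953465 held 5 tRNA genes, among them TRL-CAA1-2, TRM-CAT3-1 and TRM-CAT3-2, with 13 to 43 tags. Backgrounds in these 4 clusters stayed between 1.39 and 6.28 tags.

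Of the clusters with neither high background nor a tRNA gene, the 1 with the most peaks was in NOTCH1, with 6 peaks at chr9:136496006-136501892. Its pileups were 13, 12, 12, 7, 6 and 7 tags in order of position, and the last 3 had folds of 3.91, 3.42 and 3.34. The first 3 were split from 1 region, so the count of 6 depends on the splitting at summits. A seventh summit in the gene, outside the cluster, had 8 tags at a fold of 3.77. The highest −log10 q among the 7 was 5.14. Clusters of 4 peaks lay at MIS18A, CDH8, HPCAL1 and LOC102723769 and over GPR17 and LIMS2. Their medians were 5 to 6 tags, which is the level of most peaks in the list.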

How the data were processed

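Peaks of the library labelled HA were taken from the table the authors deposited. They called peaks with MACS 2.1.0.20150420 (aligner BWA 0.7.12 in the submitters' processing notes) on uniquely mapped, deduplicated reads against the input labelled HA, without pooling. Per the file headers, tags were extended to 201 bp without a modelled fragment size, p had to be below 0.005, the genome was taken as 3099750718 bp, and peaks were split at summits. The signal the authors deposited is the pileup in tags, their fold enrichment is a ratio with 1 added to both sides, and the p-value and q-value of each peak were deposited as −log10. The header announces that q would be left out, but the column was filled and was used as given. A p-value cutoff this low in stringency admits many peaks of 4 to 7 tags.

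The background was computed here from pileup and fold. Genes at summits were named from RefSeq (GRCh38.p14 table), which gives no exons, so exonic and intronic positions were not analysed here. Promoter sequences came from RefSeq windows of the same build, and no windows of 1 chromosome were used. The members, lists and limits were chosen with earlier results of these data known. Genes named were those at the 30 peaks of highest pileup, at the highest peaks of each class, at the clusters with the most peaks, at the highest and lowest tRNA genes of an amino acid, and in the lists given; NOTCH1 apart from its cluster, the promoter genes, LOC100189498, the genes with the most summits and the families were chosen after their values were seen. Class, cluster and background steps were tested on simulated data. Calculations were done in Python 3.11.15 (scipy 1.17.1, numpy 2.4.6, pandas 2.3.3) and plots in matplotlib 3.10.9. The ChIP and input labelled WT were not used.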

Additional observations from a re-analysis of the deposited data

Results flagged for a closer look

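Outside chromosomes 1 to 22 the list held 426 peaks, which entered no description above and for which no control level was measured. Of these, 263 lay on X with a median of 5 tags, 12 on Y, 32 on the mitochondrial genome with a median of 386 tags at a fold of 1.38, and 119 on contigs with a median of 17 tags. With 1 library per group no other rule for a closer look could be applied.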

How the results depend on the processing

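Of 57 alternatives to 10 results, 29 stayed within the 95% interval of a share or within 1.5 times a count or median, and 28 moved. With −log10 q of at least 5, there were 261 peaks with a median of 32 tags, 58.6% of summits lay in tRNA genes, 31.0% in no gene and 3.83% in protein-coding genes, 34.9% of tRNA genes held a summit, and 19 clusters held 34.1% of the peaks. With a fold of at least 5, there were 177 peaks with a median of 27 tags and 327 bp, with 70.6% in tRNA genes, 15.3% in no gene and 7.91% in protein-coding genes, and 28.5% of tRNA genes held a summit. Among the top 300, tRNA genes held 56.7% when ranked by −log10 q, 25% with all sequences of the list and 65.7% with a background under 10 tags. With whole peaks in place of summits 40.4% were in no gene, and within 200 bp 40.2%, while 58.1% of tRNA genes were reached either way. Clusters numbered 50 with 1.68% of the peaks at 5 kb and 572 with 17.2% at 50 kb. Regions before splitting gave 2.77% in clusters, and a background under 10 tags, an alternative added after seeing the data, 2.26%. Stricter limits test fewer peaks and other distances chain other neighbours by construction, and beyond that the cause was not tested. No paired analysis was possible because the result comes from 1 library and no test. Single peaks of 4 to 7 tags carry little precision at this depth, and 1 library shows no spread between replicates.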
